A study of Homo sapiens with 6 samples.

Results

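The genes described here encode the enzymes of 3 routes of excision repair and of direct reversal of damaged bases, measured in K562 cells with and without calactin. K562 is a long-established human leukaemia line of myeloid origin, and calactin is a cardenolide, a plant steroid of the class that inhibits the sodium pump. There were 3 arrays of K562 given calactin, at a dose the labels state as 0.15 mM for 12 h, and 3 arrays of K562 without an agent at the same time point. The labels call the samples biological replicates, name no vehicle for the untreated cells and give both groups the same medium, and p-values measure the spread between these 3 samples of a group. The 42 genes were chosen by name with earlier results of these data known, so their shares beside those of all genes are descriptions. Of the 42, 40 had a probe set that carries their symbol and no other, out of 19775 genes so measured. NEIL1 and PMS2 had none and were left out of the tests and counts. The 40 measured genes are 13 of nucleotide excision repair, 19 of base excision repair, 5 of mismatch repair and 3 of direct reversal.

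Nucleotide excision repair removes bulky and ultraviolet-induced lesions by cutting the strand on both sides of them. Base excision repair handles small oxidised, deaminated or alkylated bases: a glycosylase removes the base, an endonuclease opens the backbone, and a polymerase and a ligase fill and seal the gap. Mismatch repair corrects replication errors through MutS and MutL protein pairs and an exonuclease. Direct reversal enzymes take the adduct off the base without cutting DNA. DNA damage is a theme that the submitters' title names, and the comparison asks how transcripts of these routes differ between exposed and untreated cells.

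The values are intensities on a linear scale, and a probe set's level cannot be set against that of another. Log2 fold changes are of log2(intensity + 16), calactin over untreated, which understates the change of dim genes. A gene is said to have risen or fallen, or is called, where limma's test gave a Benjamini-Hochberg adjusted p under 0.05 over all 19775 genes. The array medians were 31.2 to 32.1 units with calactin and 33.1 to 34.4 without, so every calactin array was the dimmer, and the median gene changed by -0.06. The 9 measured K562 markers all lay above the median gene's signal, 3 of them falling (GATA1, TFRC and NFE2) and 1 rising (TAL1), with summed levels of 40231 to 49896 units with calactin and 44669 to 50065 without. Of 16 markers of other cell types, 6 lay above it and 3 fell (CD3D, KRT18 and COL1A2), none was at 0, and their summed level was 10475 to 11042 units with calactin and 14187 to 15778 without; their part in the results below was not tested. The 3' to 5' signal ratio, a measure of RNA integrity, was 0.938 to 1.002 with calactin and 0.936 to 0.976 without for GAPDH, and 1.17 to 1.41 and 1.23 to 1.49 for actin. In extracts of whole cultures, a loss of cells of a type and a loss of RNA per cell cannot be told apart.

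Most of the excision repair genes were lower with calactin. Of the 40, 22 fell, EXO1 alone rose and 17 were not called. Among all genes tested, 21.4% were called, 16.5% lower and 4.93% higher. The members are mostly bright genes, 38 of 40 lying above the median gene's signal, and among the 9887 genes above it 29.3% were called lower and 9.1% higher. The median log2 fold change of the 40 was -0.43, against -0.06 over all genes and -0.13 over the brighter ones, and 32 of the 40 had a negative value, against 58.1% of all genes. The 3 calactin arrays all lay below the 3 untreated ones for 24 members and above them for 2, where such separation held for 24.4% and 10.3% of all genes (39.2% and 14.9% of the brighter ones). A fall of at least 2-fold was called for 8 members, NTHL1, MUTYH, ALKBH2, NEIL2, ERCC5, XPC, ERCC2 and PMS1, against 4.4% of all genes and 7.44% of the brighter ones.

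**Figure D1:**
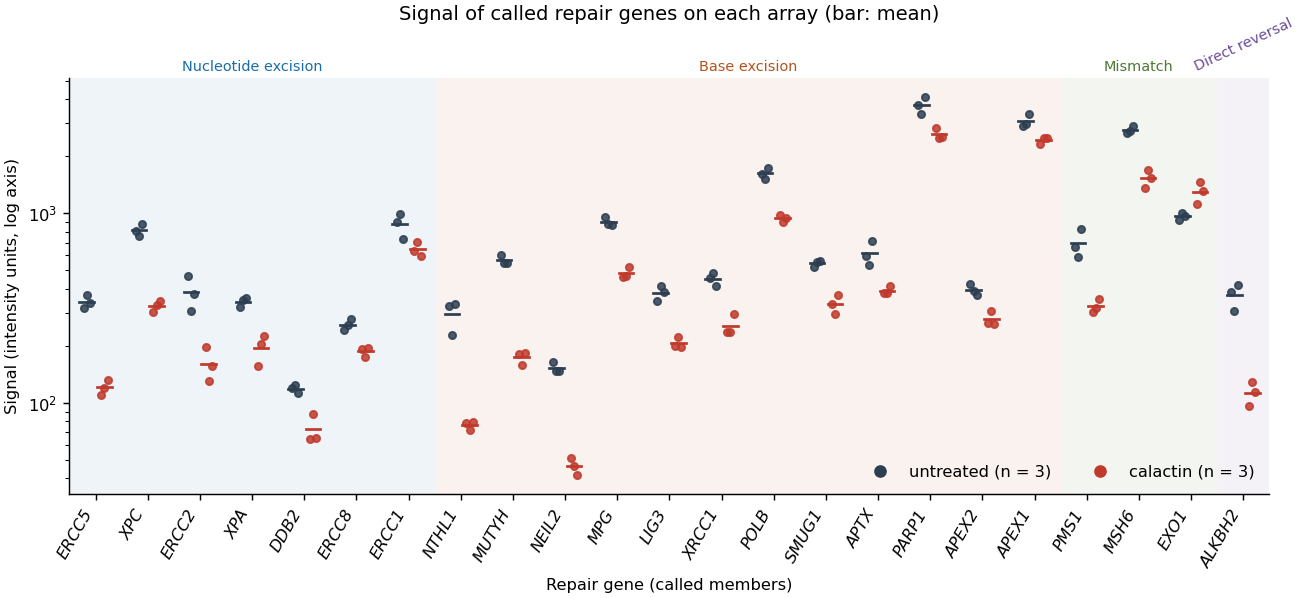
Signal on each array (intensity units, log axis) of the 23 called repair genes, sorted by change within each route; points are arrays, bars are means of 3. The calactin arrays lie below the untreated arrays for 22 genes and above them for EXO1.

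The members were counted by route. In nucleotide excision repair 7 of 13 fell and 0 rose, with a median of -0.42. In base excision repair 12 of 19 fell and 0 rose, with a median of -0.50. In mismatch repair, where PMS2 was not counted, 2 of 5 fell and 1 rose, with a median of -0.05, close to that of all genes. Of the direct reversal genes, 1 of 3 fell, the 3 including MGMT, which was too dim to read. At limma's unadjusted p under 0.05 the counts were the same, with 0 higher in both excision routes. These medians are descriptions of lists of unequal size, and the difference between routes was not tested.

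**Figure D2:**
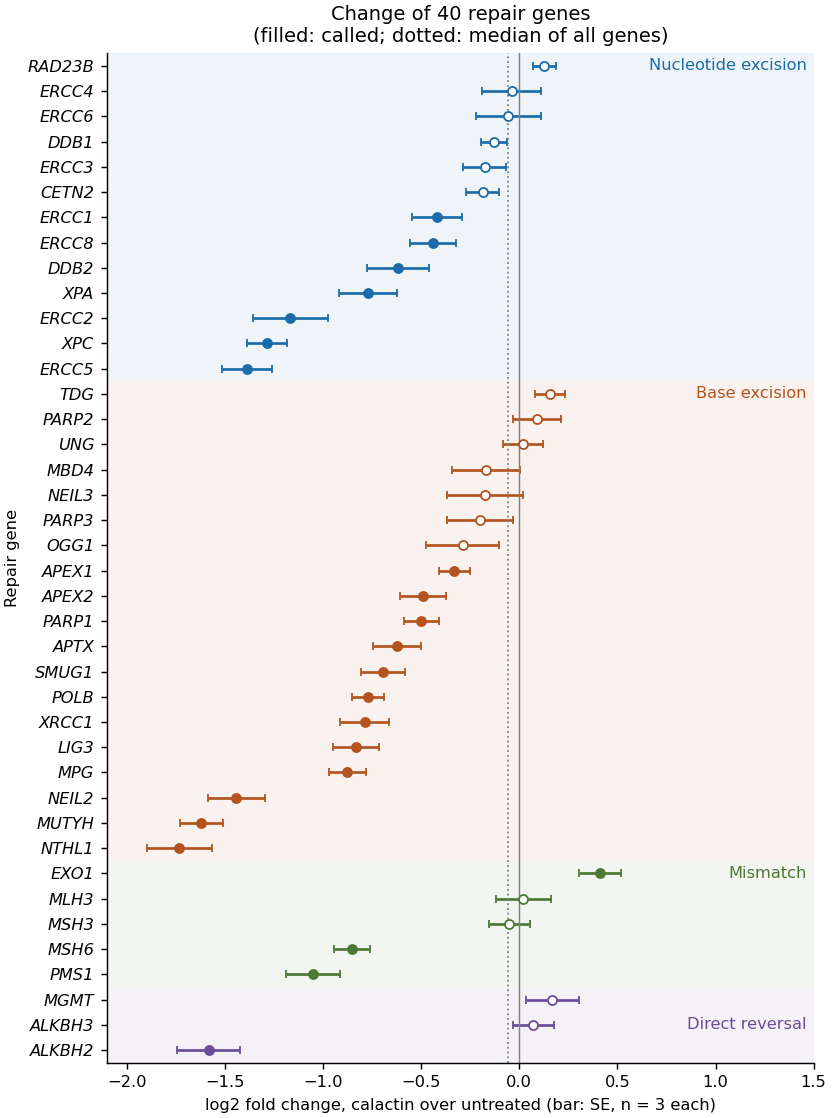
Log2 fold change of all 40 measured repair genes, calactin over untreated, with SE (n = 3 each). Filled points were called at an adjusted p under 0.05; the changes run from -1.73 for NTHL1 to 0.41 for EXO1, and the dotted line marks the median of all genes at -0.06.

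Among the sensors of nucleotide excision repair, XPC and DDB2 fell while their partners were not called. XPC is the protein that recognises helix distortion anywhere in the genome. XPC read 803, 756 and 884 units on the untreated arrays and 301, 328 and 345 on the calactin arrays, in replicate order. The groups lay far apart, a 2.44-fold fall (-1.28 ± 0.10, log2 with SE, n = 3 each, adjusted p = 1.15e-04). DDB2, which with DDB1 binds ultraviolet photoproducts, fell 1.54-fold. For DDB2 the untreated replicates 1, 2 and 3 gave 119.6, 124 and 113 units and the calactin replicates 64.5, 87.5 and 65.3. All 3 calactin values were the lower, at -0.62 ± 0.16 (adjusted p = 0.0223), and the call survived the omission of calactin replicate 2 but of no other array, and it was lost under quantile normalization and both spike scalings. DDB1, the adaptor that ties DDB2 to a ubiquitin ligase, was not called at -0.13 ± 0.07 (95% interval -0.28 to 0.02), although its calactin arrays of 2490.3 to 2747 units lay just under the untreated range of 2816 to 2896. RAD23B and CETN2, which stabilise XPC, were at 0.13 ± 0.06 and -0.19 ± 0.09, neither called. RAD23B was called higher after quantile normalization (0.18), after centring on the medians (0.18) and with poly-A spikes (0.61).

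The genes that open and check the lesion moved unequally. XPA, which verifies damage at the opened site, fell 1.70-fold. With calactin XPA was at 156, 205 and 226 units, and without it at 322, 347 and 356, in replicate order. Calactin replicate 1 was the lowest array and the groups did not overlap (-0.77 ± 0.15, adjusted p = 0.00567); the call was lost with replicates 1 and 2 alone and under poly-A spike scaling. ERCC2, the XPD helicase of the general factor TFIIH, fell 2.24-fold. The ERCC2 signal was 469, 305 and 374 units in untreated replicates 1, 2 and 3 and 196, 130.3 and 157 in the calactin ones. Both groups were broad, spanning 130 to 196 and 305 to 469 units, and still separate (-1.17 ± 0.19, adjusted p = 0.00247, and 0.075 with replicates 1 and 2 alone). ERCC3, the other TFIIH helicase, XPB, was not called at -0.18 ± 0.11 (95% interval -0.43 to 0.07), and its groups overlapped.

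The cut is made by ERCC5 on the 3' side and by the pair of ERCC1 and ERCC4 on the 5' side. ERCC5, the XPG endonuclease, had the largest fitted fall of this route at 2.61-fold. ERCC5 read 317, 371 and 335 units on the untreated arrays and 109.7, 120.4 and 132 on the calactin arrays, in replicate order. All 3 calactin arrays lay far below all 3 untreated ones (-1.39 ± 0.13, adjusted p = 1.78e-04). ERCC1 fell 1.34-fold, near the threshold (-0.42 ± 0.13, adjusted p = 0.0469). For ERCC1 the untreated replicates 1, 2 and 3 gave 899.6, 997 and 733 units and the calactin replicates 636, 711 and 596. Untreated replicate 3 came closest to the calactin arrays, and the call was lost on leaving out any array other than that one. It was also lost under all 4 scalings by log2 values, where poly-A spikes turned its sign (0.06), and with its probe sets averaged (-0.22, adjusted p = 0.142). The 2 ERCC1 probe sets of unshared sequence were at -0.15 and -0.08, neither called. ERCC4, its catalytic partner XPF, was at -0.04 ± 0.15 with overlapping groups (95% interval -0.38 to 0.31).

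Transcription-coupled repair starts where RNA polymerase stalls, through ERCC8 and ERCC6, the CSA and CSB proteins. ERCC8 fell 1.36-fold. With calactin ERCC8 was at 191, 174 and 195 units, and without it at 244, 258 and 276, in replicate order. The groups did not overlap (-0.44 ± 0.12, adjusted p = 0.0274), and the call was lost on leaving out any array other than untreated replicate 1, and under all 4 scalings by log2 values, where poly-A spikes turned its sign (0.04). With its probe sets averaged, 3 of 4 of them above the array medians, ERCC8 was at -0.18 (adjusted p = 0.364). ERCC6 was not called at -0.06 ± 0.17 (95% interval -0.43 to 0.32), with calactin arrays of 75.1 to 110.05 units around the untreated 89.8 to 97.5. A probe set that carries the symbols of both PGBD3 and ERCC6 was left out of the tests. It read 124, 138 and 181 units without and 69.4, 68.8 and 65.2 with calactin, a log2 change of -0.95. Without calactin replicate 1, calactin replicate 3 or untreated replicate 2, the number of nucleotide excision genes called lower was 4 rather than 7.

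The 2 largest fitted falls among the members were those of the DNA glycosylases NTHL1 and MUTYH. NTHL1, which removes oxidised pyrimidines, fell 3.32-fold. The NTHL1 signal was 325, 229 and 331 units in untreated replicates 1, 2 and 3 and 78.1, 72.3 and 79.1 in the calactin ones. The calactin arrays were close together, while untreated replicate 2 stood below the other untreated arrays (-1.73 ± 0.16, adjusted p = 2.04e-04). MUTYH, which takes out adenine paired with 8-oxoguanine, fell 3.07-fold. MUTYH read 605, 550.4 and 548 units on the untreated arrays and 182, 158 and 183 on the calactin arrays, in replicate order. The groups lay far apart and each was narrow (-1.62 ± 0.11, adjusted p = 7.40e-05, the smallest of any member). NEIL2, an oxidised-base glycosylase that also acts in single-stranded stretches, fell 2.72-fold. For NEIL2 the untreated replicates 1, 2 and 3 gave 164, 148 and 148 units and the calactin replicates 50.9, 46.7 and 41.4. The groups did not overlap, and the fitted change ran from -0.98 with a pseudocount of 64 to -1.71 with a pseudocount of 1 (-1.44 ± 0.14 as reported, adjusted p = 2.58e-04).

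Alkylated and uracil bases are the substrates of MPG and SMUG1, which fell less. MPG, the alkyladenine glycosylase, fell 1.84-fold. With calactin MPG was at 462, 467 and 521 units, and without it at 954, 882 and 865, in replicate order. No array of either group came near the other (-0.88 ± 0.09, adjusted p = 3.27e-04). SMUG1, a uracil glycosylase, fell 1.62-fold. The SMUG1 signal was 524, 552 and 558 units in untreated replicates 1, 2 and 3 and 332, 295 and 369.7 in the calactin ones. The groups were separate (-0.69 ± 0.11, adjusted p = 0.00232), as they were for another SMUG1 probe set at -0.77. The probe set of unshared sequence was at 0.03, but it was dim, at 33.6 to 47.8 units. The SMUG1 call was lost under hybridisation and poly-A spike scaling.

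The remaining 5 measured glycosylase genes were not called. UNG read 1341, 1267 and 1444 units on the untreated arrays and 1326, 1554 and 1241 on the calactin arrays, in replicate order. UNG, the main uracil glycosylase at replication forks, had overlapping groups, with calactin replicate 2 the highest array (0.02 ± 0.10, 95% interval -0.21 to 0.25). TDG, which acts on thymine mispaired with guanine and on oxidised forms of methylcytosine, was at 0.16 ± 0.08 (95% interval -0.02 to 0.33), called higher under quantile normalization (0.24) and poly-A spike scaling (0.64). MBD4, a glycosylase for mispaired thymine and uracil at CpG sites, was at -0.17 ± 0.17 and NEIL3, for oxidised bases in single strands, at -0.18 ± 0.19, each with overlapping groups. The MBD4 probe sets differed: another was called lower at -0.46, tested over all probe sets. The rest were at -0.32 and, for that of unshared sequence, 0.10, neither called. For OGG1 the untreated replicates 1, 2 and 3 gave 278, 239 and 267 units and the calactin replicates 266, 226 and 155. OGG1, which removes 8-oxoguanine, had wide calactin arrays around this value (-0.29 ± 0.19, adjusted p = 0.357), and its probe sets differed. Another OGG1 probe set, also of shared sequence, read 174, 228 and 175 units without and 73.3, 88.8 and 92.6 with calactin and was called lower at -1.04, tested over all probe sets. The NEIL1 probe sets, which carry the symbol MIR631 too and were left out of the tests, were at 0.02 and -0.11.

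All 6 members grouped here as processing the gap left by a glycosylase fell, where 29.3% of the brighter genes were called lower. Of 35 other measured genes of these routes, 14 fell, TDP1 among them, and 1 rose. FEN1 at 0.01 ± 0.09, LIG1 at 0.29 ± 0.11 and POLL at -0.27 ± 0.19 were not called. These 3 were named after the data were seen. POLB, the polymerase that fills a gap of a single base, fell 1.71-fold. With calactin POLB was at 982, 904 and 949.8 units, and without it at 1622, 1521 and 1736, in replicate order. Both groups were narrow and far apart (-0.77 ± 0.08, adjusted p = 3.31e-04). LIG3, the ligase that seals the nick, fell 1.78-fold. The LIG3 signal was 346, 412 and 387 units in untreated replicates 1, 2 and 3 and 201, 223 and 198 in the calactin ones. The fall was seen in all 5 LIG3 probe sets above the array medians, from -0.83 to -0.61 (-0.83 ± 0.12 for the gene, adjusted p = 0.00119). XRCC1, the scaffold that holds LIG3 at the break, fell 1.73-fold. XRCC1 read 456, 485 and 414 units on the untreated arrays and 236, 238 and 293 on the calactin arrays, in replicate order. Calactin replicate 3 was the highest of its group and still below every untreated array (-0.79 ± 0.12, adjusted p = 0.00216). The POLB, LIG3 and XRCC1 calls were lost under poly-A spike scaling in its log2 and linear forms and in no other alternative, and the log2 form gave -0.29, -0.35 and -0.31.

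Smaller falls were found for the genes that trim the ends. APTX, which removes adenylate groups left by an aborted ligation, fell 1.54-fold. For APTX the untreated replicates 1, 2 and 3 gave 599.6, 535 and 716 units and the calactin replicates 382, 381 and 413. Untreated replicate 3 was the brightest array, and the groups did not overlap (-0.62 ± 0.12, adjusted p = 0.00624). Averaging the APTX probe sets ended the call, at -0.26, as did replicates 1 and 2 alone and both spike scalings. That average took in a probe set at only 1 to 15.2 units. It also took in a brighter one of shared sequence, at -0.32 and not called over all probe sets. This one read 339 to 390 units with calactin and 412 to 516 without. APEX1, the main endonuclease at abasic sites, fell 1.26-fold. With calactin APEX1 was at 2314, 2498 and 2490.2 units, and without it at 2903, 2959 and 3346, in replicate order. The groups did not overlap (-0.33 ± 0.08, adjusted p = 0.0154), and the call was lost without calactin replicate 1, with replicates 1 and 2 alone and under both spike scalings, where poly-A spikes turned its sign (0.15). APEX2, its minor relative, fell 1.40-fold. The APEX2 signal was 426, 388 and 369 units in untreated replicates 1, 2 and 3 and 263, 306 and 260.5 in the calactin ones. Each calactin array was below each untreated one (-0.49 ± 0.12, adjusted p = 0.0154), and omitting calactin replicate 1 or 3, or untreated replicate 1, ended the call, as did quantile normalization and both spike scalings; another APEX2 probe set was at -1.43.

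Of the poly(ADP-ribose) polymerase genes, which mark strand breaks, PARP1 fell and PARP2 and PARP3 were not called. PARP1 makes most of the polymer. PARP1 read 3715, 3341 and 4109 units on the untreated arrays and 2825, 2513 and 2533 on the calactin arrays, in replicate order. Untreated replicate 2 was the lowest of its group and still exceeded every calactin array, a 1.41-fold fall (-0.50 ± 0.09, adjusted p = 0.00425). The PARP1 call was lost under hybridisation spike scaling and with replicates 1 and 2 alone, and its value was -0.02 under poly-A spike scaling. PARP2 was at 0.09 ± 0.12 (95% interval -0.19 to 0.37), with the same lack of a call in 3 probe sets. PARP3 lay near the array medians at 24.1 to 42.4 units in all 6 arrays, so its change is poorly measured.

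In mismatch repair, a MutS and a MutL gene fell and the exonuclease rose. MSH6, the MutS subunit for base mismatches and small loops, fell 1.81-fold. For MSH6 the untreated replicates 1, 2 and 3 gave 2673, 2732 and 2909.9 units and the calactin replicates 1362, 1695 and 1541. The groups lay far apart (-0.85 ± 0.09, adjusted p = 3.36e-04), and a further MSH6 probe set fell alike, at -0.84. MSH3, the subunit for larger loops, was at -0.05 ± 0.11 (95% interval -0.29 to 0.19). PMS1, a MutL protein of unsettled role, fell 2.07-fold. With calactin PMS1 was at 301, 318 and 353 units, and without it at 667, 588 and 828, in replicate order. Every untreated array was above every calactin array (-1.05 ± 0.14, adjusted p = 8.51e-04). The call was lost with its probe sets averaged (-0.44, adjusted p = 0.0773), of which only 2 of 5 lay above the array medians. It was also lost with the brightest PMS1 probe set of unshared sequence (-0.27), which was dim at 39.2 to 81.6 units. MLH3, a MutL protein used mainly in meiosis, was at 0.02 ± 0.14 with overlapping groups. PMS2 had only probe sets that carry the symbol PMS2CL too, which were left out of the tests. The brighter read 448, 465 and 414 units without and 278, 320 and 289 with calactin, a log2 change of -0.56. The dimmer read 131, 132 and 150 units without and 55.05, 60.4 and 64.7 with calactin, a change of -1.01. EXO1, which degrades the strand that carries the error, rose 1.33-fold. The EXO1 signal was 919.7, 1008 and 974 units in untreated replicates 1, 2 and 3 and 1124, 1456 and 1314 in the calactin ones. Calactin replicate 1 was the closest to the untreated range (0.41 ± 0.11, adjusted p = 0.0231), and omitting calactin replicate 2 or 3, or untreated replicate 1 or 3, ended the call, as did hybridisation spike scaling at 0.51.

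The direct reversal genes gave 3 different outcomes. ALKBH2, a dioxygenase that repairs alkylated bases in double-stranded DNA, fell 2.99-fold. ALKBH2 read 387, 306 and 421 units on the untreated arrays and 96.2, 129.7 and 114 on the calactin arrays, in replicate order. The groups lay far apart (-1.58 ± 0.16, adjusted p = 2.70e-04). ALKBH3, which prefers single strands, was at 0.07 ± 0.11 (95% interval -0.17 to 0.31), with 379 to 439 units with calactin and 362 to 404 without. For MGMT the untreated replicates 1, 2 and 3 gave 1.37, 1 and 1 units and the calactin replicates 5.46, 1 and 3.52. MGMT, which takes methyl groups off guanine, thus lay far below the array medians in all 6 arrays, and no change can be read at that level.

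Probe sets of a gene were compared where more than 1 lay above the array medians, which held for 18 members, with every probe set tested on its own. For APEX2, ERCC2, LIG3 and MSH6, every such probe set was called lower, 4 of 18 members against 10.6% of 5720 genes, although the size could differ, as for APEX2. In 8 members none was called, against 50.5% of genes. The other 6 members, APTX, ERCC8, MBD4, OGG1, PMS1 and SMUG1, had probe sets called lower beside others not called, against 23.9% of genes, and 0 members had calls in opposite directions, against 1.21%. ERCC1 passed the threshold over genes and in none of its 3 probe sets over all probe sets.

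**Figure D3:**
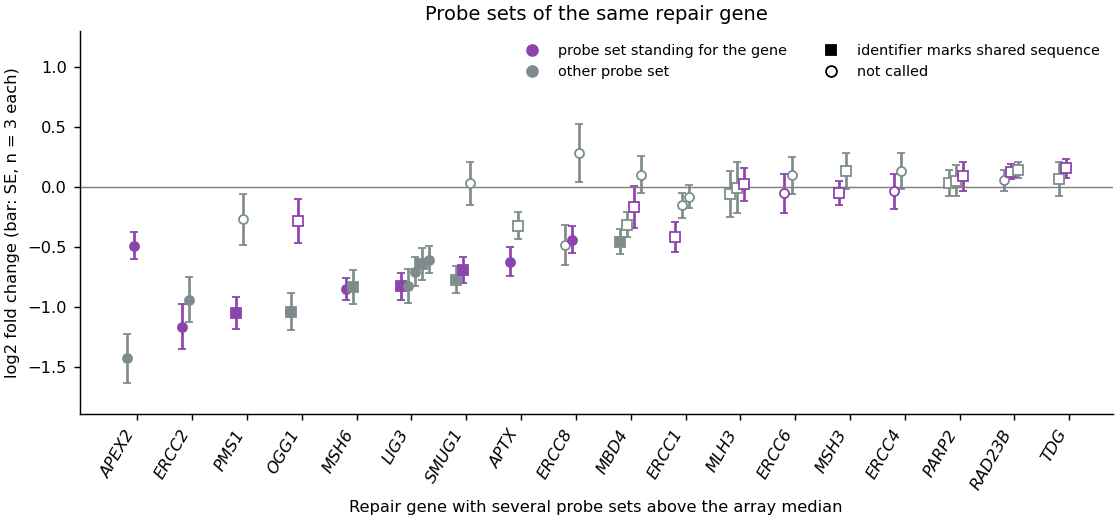
Log2 fold change with SE (n = 3 each) of each probe set above the array medians, for the 18 repair genes with more than 1. Calls (filled) are adjusted over all probe sets with 1 symbol; APEX2 spans -1.43 to -0.49 and SMUG1 -0.77 to 0.03, while the 5 of LIG3 lie from -0.83 to -0.61.

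Other genes of the same routes were counted in the same way. From a list of other subunits and replication partners, 35 were measured, of which 14 fell and 1, PCNA, rose (0.25 ± 0.07), with a median of -0.27. Of the 35, 34 lay above the median gene's signal, where 29.3% of genes were called lower and 9.1% higher. The 6 with the smallest p all fell. GTF2H3 and GTF2H4, core subunits of TFIIH, fell by 1.25 ± 0.12 and 1.18 ± 0.12. CCNH and CDK7, of its kinase module, fell by 0.87 ± 0.07 and 0.69 ± 0.11. CUL4A, the scaffold of the ligase that holds DDB1, fell by 0.98 ± 0.12, and TDP1, which clears trapped topoisomerase from DNA ends, by 0.81 ± 0.14. Together with ERCC2 and ERCC3, TFIIH had 9 measured subunits, a grouping made after these values were seen; 7 of them fell, the others being MNAT1 at -0.71 ± 0.15 and GTF2H5 at -0.43 ± 0.09, and ERCC3 and GTF2H1 (0.22 ± 0.11) were not called. A list of crosslink and strand break repair genes, set beside these for scale, had 10 of 23 lower, 1 higher and a median of -0.34. All 9 TFIIH subunits and 22 of these 23 genes also lay above the median gene's signal.

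Several repair genes start back to back with a gene on the other strand, so that 2 transcripts begin from opposite ends of the same short stretch. In RefSeq starts on GRCh38.p14, 15 pairs had a start on the other strand within 1000 bases upstream of a member's, and both genes were measured in 11; this comparison was chosen after the data had been seen. For 7 of the 11 the repair gene fell. Both genes were called in 1 pair, in opposite directions, and in 0 pairs in the same direction, where 3.58% and 7.33% of all 1228 such pairs of measured genes were. The intervals of TOE1, NDUFAF2 and DNAJA1, not called, lay wholly below 0, on the side of their repair genes. That of LSM3, also not called, lay wholly above 0 (0.007 to 0.29), on the side opposite to XPC. The log2 difference between the 2 genes on the same array, which no shift of a whole array alters, was apart between the groups in 8 of 11 pairs, against 48% of all pairs. With both genes above the median gene's signal it was apart in 7 of 10, against 60.2% of 650 pairs, so the share is near that of other pairs and is no result about repair genes. An exact two-sided permutation test cannot give less than 0.10 with 3 against 3 arrays, or less than 0.25 where arrays are exchanged within a replicate number, so the pairs are described without a test.

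PMS1 and ORMDL1, whose nearest starts are 111 bases apart, moved in opposite directions. ORMDL1, which restrains sphingolipid synthesis, read 1180.3, 1251 and 1229 units in untreated replicates 1, 2 and 3 and 1932, 1922 and 1943 with calactin. It thus rose by 0.66 ± 0.07 (adjusted p = 3.06e-04) where PMS1 fell by 1.05 ± 0.14, a difference of differences of -1.71; with the probe sets of PMS1 averaged, its own change was -0.44 and not called. For XPC and LSM3, 216 bases apart, LSM3, a subunit of an RNA-binding ring of splicing and decay, read 5625, 5930 and 6218 units without and 6597, 6292 and 6837 with calactin. LSM3 was not called (0.15 ± 0.06), and the difference to XPC was -1.44. For NTHL1 and TSC2, 151 bases apart, TSC2, an inhibitor of growth signalling, was at -0.30 ± 0.22 and the difference was -1.43. MUTYH and TOE1 differed by -1.20, with TOE1, a trimming enzyme of small RNAs, at -0.42 ± 0.14 (adjusted p = 0.0616). For CETN2, not called, the neighbour NSDHL, an enzyme of cholesterol synthesis, fell by 1.72 ± 0.12. RRP9, a ribosome assembly factor beside PARP3, fell by 1.35 ± 0.19, but PARP3 was too dim for a comparison. APTX and DNAJA1 and APEX1 and OSGEP differed by -0.39 and -0.22, while ERCC8 and NDUFAF2, MBD4 and IFT122, and DDB1 and TKFC overlapped between the groups.

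**Figure D4:**
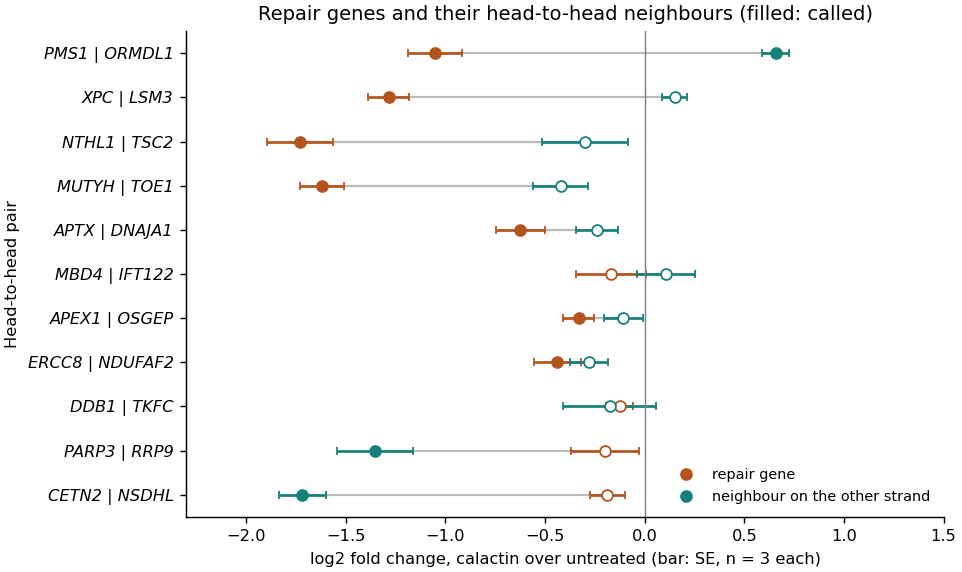
Log2 fold change with SE (n = 3 each) of 11 repair genes and of the gene that starts within 1000 bases of them on the other strand, sorted by their difference. Filled points were called; PMS1 lies at -1.05 and its neighbour ORMDL1 at 0.66, the only pair with both called.

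The stretches between the starts of 3 such pairs follow, with the upstream 250 bases of ALKBH2 and of EXO1, a member that fell and the one that rose without a measured neighbour of this kind. They are from RefSeq (GRCh38.p14), on the strand of the repair gene and ending at the base before its start. Capitals mark matches on either strand to the motifs searched.
XPC, chr3:14178602-14178816, minus strand: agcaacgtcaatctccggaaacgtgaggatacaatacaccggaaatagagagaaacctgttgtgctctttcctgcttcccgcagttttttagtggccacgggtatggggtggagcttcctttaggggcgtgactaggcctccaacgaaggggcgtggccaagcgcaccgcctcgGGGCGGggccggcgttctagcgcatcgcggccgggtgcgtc
PMS1, chr2:189784340-189784449, plus strand: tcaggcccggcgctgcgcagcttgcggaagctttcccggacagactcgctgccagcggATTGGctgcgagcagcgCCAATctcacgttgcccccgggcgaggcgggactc
NTHL1, chr16:2047835-2047984, minus strand: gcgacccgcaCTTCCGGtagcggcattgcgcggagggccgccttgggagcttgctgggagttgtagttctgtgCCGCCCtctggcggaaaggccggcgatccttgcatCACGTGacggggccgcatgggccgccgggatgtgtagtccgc
ALKBH2, chr12:109093473-109093722, minus strand: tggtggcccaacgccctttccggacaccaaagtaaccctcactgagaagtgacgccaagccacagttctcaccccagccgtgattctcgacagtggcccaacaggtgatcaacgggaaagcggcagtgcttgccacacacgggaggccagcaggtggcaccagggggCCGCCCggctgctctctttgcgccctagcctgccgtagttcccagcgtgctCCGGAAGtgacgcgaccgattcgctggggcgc
EXO1, chr1:241847954-241848203, plus strand: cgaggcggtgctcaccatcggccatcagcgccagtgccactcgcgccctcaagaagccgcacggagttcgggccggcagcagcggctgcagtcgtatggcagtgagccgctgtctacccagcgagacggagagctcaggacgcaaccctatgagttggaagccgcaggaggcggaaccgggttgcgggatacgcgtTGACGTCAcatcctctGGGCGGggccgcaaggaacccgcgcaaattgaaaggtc
The capitals are an SP/KLF match in the XPC stretch, a pair of NF-Y matches in that of PMS1, ETS, SP/KLF and E-box matches in that of NTHL1, SP/KLF and ETS matches upstream of ALKBH2, and CRE and SP/KLF matches upstream of EXO1.

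Promoter windows of 250 bases upstream of the most upstream RefSeq start were found for 39 members, 19 of which fell and 18 of which were measured and did not. Short motifs, which can overlap one another, were searched on both strands. The SP/KLF motif (GGGCGG) was found in 14 of the 19 and 12 of the 18, and in 42.2% of all 27305 promoters. The NF-Y motif (CCAAT) was found in 10 and 7, and in 33.0% of all. The ETS motif (CCGGAAG) was found in 3 and 3, against 8.78% of all. The E-box (CACGTG) was found in 4 and 1, against 6.46% of all. The E2F motif (TTTNNCGC) was found in 1 and 2, against 5.92% of all. The CRE (TGACGTCA) and NRF1's palindromic core were each found in 0 and 2, against 1.75% and 1.13% of all. The TATA box (TATAAA) was found in 0 of either set and in 11.2% of all promoters. YY1's motif (AAGATGGCG) was likewise found in 0 of either set and in 0.641% of all. The GC content of the windows was alike, with medians of 64.4% and 64.6%. The genomic span had a median of 30.0 kb in members that fell and 37.3 kb in those that did not, against 28.1 kb over all genes called lower, 39.4 kb over those called higher and 25.2 kb over those not called. These are descriptions, and such matches are letters in a window, not sites.

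The scale of the arrays bears on the direction of the smaller changes. Of all calls, 77.0% were lower as reported. The share was 59.1% with quantile normalization, 69.2% with arrays centred on their medians, 70.8% with hybridisation spikes and 12.7% with poly-A spike scaling with the replicate block, which moved the median gene to 0.42. The poly-A spikes themselves had a mean log2 signal of 9.22 to 10.18 in replicates 1 and 2 and of 6.46 and 6.76 in replicate 3 of the calactin and untreated groups. Under that scaling 10 members were called lower and 11 higher, and the medians of the nucleotide excision, base excision and mismatch genes were 0.06, -0.02 and 0.43. Because that scaling shifts a whole array, the distance of each list from the median gene is the same by construction. XPC, ERCC5, MUTYH, NTHL1, NEIL2, MPG and ALKBH2 were called lower in all 22 alternatives, and MSH6 in all but poly-A spike scaling of the linear values, which was added after the data were seen.

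**Figure D5:**
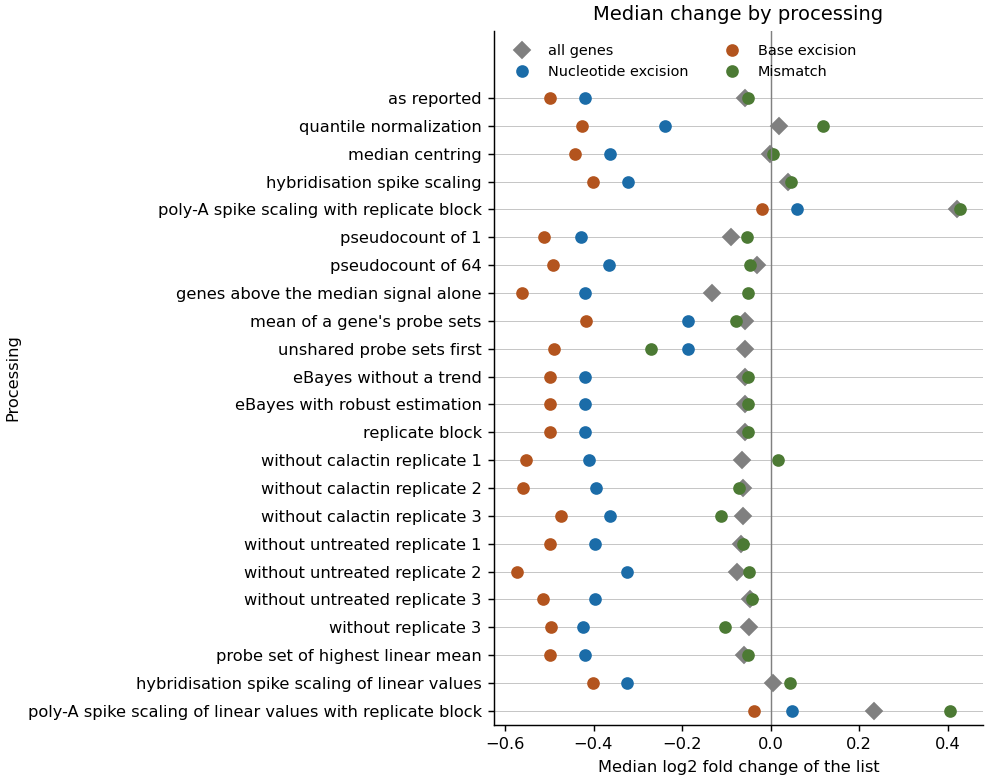
Median log2 fold change of the nucleotide excision, base excision and mismatch genes and of all genes under each processing. Base excision lies below the median of all genes in every row, at -0.02 against 0.42 under poly-A spike scaling and -0.50 against -0.06 as reported. Shifts of whole arrays in log2, the variance models and the replicate block leave this distance the same by construction, so those rows are no separate support.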

How the data were processed

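Total RNA of 6 K562 cultures was hybridised to single-colour Affymetrix arrays. The authors deposited 1 intensity per probe set and array, on a linear scale; the method that made these values is not given in the sources used here. Values were used as deposited, with no further scaling, as log2(intensity + 16). Of 54675 probe sets, 62 were controls, 41091 carried 1 gene symbol, 1801 several and 11721 none; only those with 1 symbol were used, and a gene was read from its probe set of highest mean log2 value over the 6 arrays.

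Groups were compared with limma 3.58.1 (R 4.3.3; lmFit and eBayes with a variance trend) on 19775 genes, with Benjamini-Hochberg adjusted p-values, 95% intervals and a threshold of 0.05. The fitting script was tested on simulated data. Figures used matplotlib 3.10.9. The members and gene lists were chosen with earlier results of these data known. Members were all named, with values per array for those called and for XPA, DDB2, PARP1, OGG1, UNG, MSH6, PMS2 and MGMT. Those of PMS2 came from probe sets that carry several symbols, which were not tested. Of the other genes of these routes, the 6 of smallest p were named by plan. FEN1, LIG1, POLL, PCNA and further TFIIH subunits were named after the data were seen. The neighbouring genes, motifs, printed promoters, TFIIH grouping and the comparison of probe sets by brightness were chosen after the data were seen. The titles give replicate numbers 1 to 3 in both groups, and deviations from the group means correlated within a number (r = 0.544, 0.409 and 0.345 over 9887 genes; at most -0.008 between numbers), so the numbers pair the arrays. The reported SE, intervals and p-values leave this pairing out, and the replicate block, run as an alternative, takes it in. Alternatives covered scaling, pseudocount, a filter on dim genes, the choice of probe set, the variance model, the replicate block and arrays left out. The linear-mean choice of probe set and the spike scaling of linear values were run first, replaced by the log2 forms reported here, and kept as alternatives.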

Additional observations from a re-analysis of the deposited data

How the results depend on the processing

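Reported counts were 22 members lower and 1 higher (nucleotide excision 7 and 0, base excision 12 and 0, mismatch 2 and 1), with medians of -0.42, -0.50 and -0.05. The replicate block left them at 22 lower and 1 higher and changed no member's call, while over all genes it called 1402 higher and 3992 lower. Choosing probe sets by linear mean, added after seeing the data, changed no member's call. Leaving out arrays gave 13 to 20 lower and 0 to 1 higher (nucleotide excision 2 to 5 lower, base excision 8 to 12, mismatch 2 to 2 and 0 to 1 higher), with medians of -0.42 to -0.32, -0.57 to -0.47 and -0.11 to 0.02. Over all genes, the higher count fell from 975 to 648 without calactin replicate 2 and to 644 without calactin replicate 3, and to 332 with replicates 1 and 2 alone (1403 lower).

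Quantile normalization gave 3 members higher, nucleotide excision 4 lower and 1 higher with a median of -0.24, and base excision 1 higher. Median centring gave 2 members higher, 1 of them in nucleotide excision. Hybridisation spike scaling gave 14 lower and 0 higher (nucleotide excision 4 lower, base excision 7, mismatch 0 higher), and the same counts on linear values. Poly-A spike scaling with the block gave 10 lower and 11 higher (nucleotide excision 3 and 3, base excision 4 and 3, mismatch 3 higher), with medians of 0.060, -0.019 and 0.43. On linear values, added after seeing the data, it gave 9 and 6 (nucleotide excision 3 and 1, base excision 4 and 2, mismatch 1 and 2), with medians of 0.049, -0.038 and 0.41, and 4100 higher and 1072 lower over all genes. The mean of probe sets gave a nucleotide excision median of -0.19 and 1 mismatch gene lower; unshared probe sets gave -0.19, 1 lower and a mismatch median of -0.27. Without a variance trend, 0 members were called higher. The cause of these shifts was not tested.

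Signs turned for these members. With poly-A spikes and the block, ERCC1 was at 0.060, ERCC3 at 0.30, ERCC4 at 0.44, ERCC6 at 0.42, ERCC8 at 0.041, DDB1 at 0.35, CETN2 at 0.29, OGG1 at 0.19, NEIL3 at 0.30, MBD4 at 0.31, APEX1 at 0.15, PARP3 at 0.28 and MSH3 at 0.43. With poly-A spikes on linear values, ERCC1 was at 0.049, ERCC3 at 0.27, ERCC4 at 0.35, ERCC6 at 0.35, DDB1 at 0.35, CETN2 at 0.28, OGG1 at 0.13, NEIL3 at 0.24, MBD4 at 0.30, APEX1 at 0.14, PARP3 at 0.086 and MSH3 at 0.41. With quantile normalization, ERCC3 was at 0.011, ERCC4 at 0.16, ERCC6 at 0.096, NEIL3 at 0.020 and MSH3 at 0.12. With median centring, ERCC4 was at 0.019, ERCC6 at 0.00161 and MSH3 at 0.00527. With hybridisation spikes, ERCC4 was at 0.060, ERCC6 at 0.043 and MSH3 at 0.046. With probe sets averaged, ERCC4 was at 0.048, ERCC6 at 0.020 and MLH3 at -0.016. With hybridisation spikes on linear values, ERCC4 was at 0.052, ERCC6 at 0.026 and MSH3 at 0.043. With unshared probe sets first, OGG1 was at 0.53 (a probe set of 4.95 to 27.1 units), SMUG1 at 0.029 and MBD4 at 0.10. Leaving out arrays moved ERCC4 from -0.14 to 0.059, ERCC6 from -0.21 to 0.044, UNG from -0.071 to 0.14, MSH3 from -0.11 to 0.030, MLH3 from -0.052 to 0.099 and ALKBH3 from -0.025 to 0.12.
Spike signals varied between replicates, and 3 arrays a group limit the precision.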
